A study of Homo sapiens with 36 samples.

Results

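The comparison set 3 arrays of TC32 cells that received the SF3B1 siRNA named A3 against 6 arrays of cells that received SF3B1 siRNA A2 or Q3 (3 arrays each, both siRNAs weighted equally). These 9 arrays are all those with SF3B1 silenced, out of 36 in the study. It was chosen because the siRNAs left nearly equal SF3B1 mRNA. TC32 is an Ewing sarcoma cell line with the EWSR1-FLI1 gene fusion. Every siRNA was given at 20 nM, and total RNA was taken 48 h after transfection and read on Illumina HT-12 bead arrays. A negative control siRNA (siNeg) gave 3 arrays in the same run of arrays, where a run is a set of arrays that share one value distribution in the authors' normalized table. The rest of the series (Untreated cells, further siNeg arrays, and siRNAs against SUPT6H and HNRNPH1) entered only the estimate of spread.

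SF3B1 is the largest subunit of the SF3B complex within the U2 snRNP, the part of the spliceosome that recognises the branch point of an intron. An siRNA guides the RNA interference machinery to a complementary mRNA, which is then cut. An siRNA can also lower other transcripts that match its seed, and for this reason several siRNAs with different sequences are commonly used against one gene. The sequences of A2, A3 and Q3 were not used here. Each of these 3 is 1 reagent, so the spread between arrays is the spread within a reagent, and separate cultures for the replicates are not stated.

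Values are log2 intensities after background correction and quantile normalization, and 11437 genes were measured. A gene was called where limma's Benjamini-Hochberg adjusted p was below 0.05, over all genes and two-sided. Between 13936 and 14557 probes were detected per A3 array, within the spread of A2 (13144 to 14853) and close to that of Q3 (13106 to 14556). Of 9 Ewing sarcoma marker genes with a probe, 6 were detected on all 9 arrays, while GLI1 was detected on none. None of 5 blood cell and none of 4 skeletal muscle markers was detected on any of the 9 arrays. KRT18 was the 1 of 6 epithelial markers, and THY1 the 1 of 8 fibroblast markers, detected on all of them.

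SF3B1 mRNA was nearly equal with the 3 siRNAs, which is why they were chosen, so its values are a description. It read 8.18, 7.69 and 7.93 with A3, 8.13, 7.99 and 8.003 with A2, 7.88, 7.85 and 8.17 with Q3, and 9.39, 9.10 and 9.32 with siNeg. All 9 arrays lay below the siNeg arrays, and the arrays of the 3 siRNAs overlapped. The mRNA left was 39.6% of siNeg with A3, 42.6% with A2 and 40.5% with Q3. A3 minus the mean of A2 and Q3 was -0.07 (95% confidence interval -0.26 to 0.12). A second, dimmer SF3B1 probe gave 28.6% left with A3, 24.4% with A2 and 23.6% with Q3, a difference of 0.25. The level of the SF3B1 protein was not measured.

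A3 stood apart from both other siRNAs across the transcriptome. Against the mean of A2 and Q3, 1601 genes were called, which is 14% of the genes tested. Of these, 1060 were higher with A3 (9.27% of genes) and 541 lower (4.73%). The median size of a called difference was 0.44 for the higher genes and -0.40 for the lower ones, and 33 higher genes and 1 lower gene differed by at least 1. Over all genes the median difference was 0.02, and 2971 genes had an unadjusted p below 0.05.

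Far fewer genes were called between A2 and Q3. Compared with A2, A3 gave 1248 called genes (10.9%), and compared with Q3 it gave 1297 (11.3%). A2 against Q3 gave 28 (0.245%), a count that depended on the processing and was 0 to 24 without 1 array. An unadjusted limma p below 0.05 was met by 1289 genes for A2 against Q3, 2663 for A3 against A2 and 2713 for A3 against Q3. These comparisons share arrays with each other. Genes called against both other siRNAs separately, in the same direction, numbered 737 for A3 (6.44%), of which 540 were higher (4.72%) and 197 lower (1.72%). The same count was 9 for A2 (0.0787%) and 11 for Q3 (0.0962%). Against the mean of the remaining siRNAs, 387 genes were called for A2 (3.38%) and 322 for Q3 (2.82%), and the A3 arrays are part of those means. Over the alternatives tried, these separate counts ran from 0 to 32 for A2, from 0 to 24 for Q3 and from 498 to 875 for A3. Without A3 replicate 1 the 1601 genes became 1064, and the 541 lower genes became 330, 360 or 348 without A3 replicate 1, 2 or 3.

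**Figure D1:**
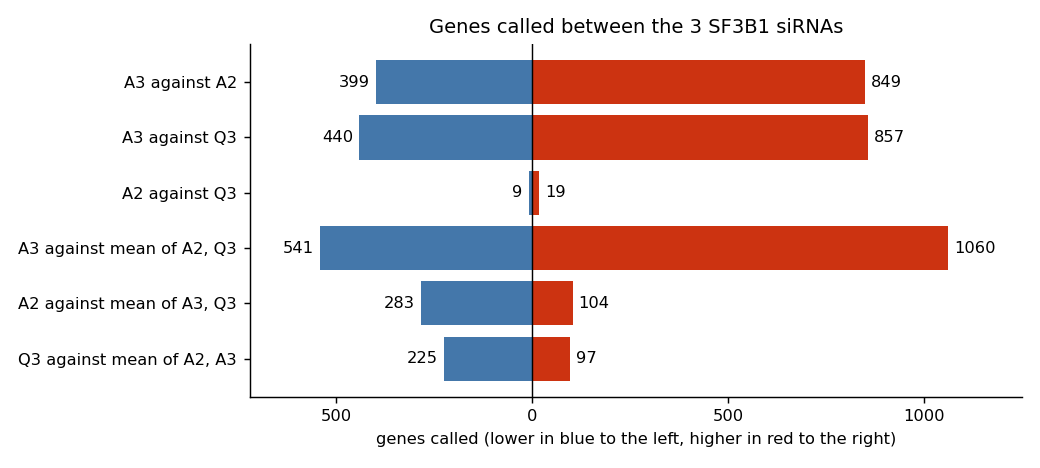
Number of genes called between the SF3B1 siRNAs (limma, adjusted p below 0.05), higher in the first-named siRNA to the right and lower to the left. A2 against Q3 gave 19 higher and 9 lower genes, while A3 gave 849 higher and 399 lower genes against A2, and 857 higher and 440 lower against Q3.

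The arrays of the 3 A3 replicates correlated with each other at 0.992 to 0.993 over all genes. They correlated with A2 arrays at 0.983 to 0.988 and with Q3 arrays at 0.985 to 0.988. A2 and Q3 arrays correlated with each other at 0.988 to 0.991. With the siNeg arrays of the run, A3 arrays correlated at 0.944 to 0.952, A2 arrays at 0.927 to 0.947 and Q3 arrays at 0.934 to 0.945. The median absolute difference from siNeg was 0.35 with A3, 0.39 with A2 and 0.39 with Q3. All 3 A3 arrays lay above all 6 others for 1128 genes (9.86%) and below all 6 for 706 genes (6.17%). Each SF3B1 siRNA changed a large share of the transcriptome from siNeg, with 6078 genes called for A3 (53.1%), 6607 for A2 (57.8%) and 6630 for Q3 (58%), all from the same 3 siNeg arrays.

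The 15 largest higher and 15 largest lower genes among those called against A2 and against Q3 are described next. The higher ones differed by 1.13 to 1.65 and the lower ones by 0.70 to 1.21 in size. In all 30 the A3 arrays did not overlap the 6 others, as was so for 9.86% (above) and 6.17% (below) of all genes, and in none was A2 called against Q3. The contrast chose these genes, so these facts describe them and test nothing.

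CYYR1, a cysteine- and tyrosine-rich membrane protein encoded on chromosome 21, showed the largest difference. It read 8.04, 7.99 and 8.20 with A3, 6.39, 6.40 and 6.53 with A2, 6.21, 6.60 and 6.46 with Q3, and 6.77, 6.59 and 6.97 with siNeg. A3 lay above every other array, siNeg included, and the difference from A2 and Q3 was 1.65 (SE 0.11, adjusted p = 1.87e-16, limma), or 3.13-fold. The difference from siNeg was 1.30 with A3, -0.34 with A2 and -0.35 with Q3, all 3 of them called.

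CD58, the adhesion ligand that binds CD2 on T cells, behaved alike. With A3 it read 8.0, 8.04 and 8.04, with A2 6.66, 6.28 and 6.66, with Q3 6.17, 6.64 and 6.77, and with siNeg 6.90, 6.88 and 6.91. The A3 arrays were the highest and the A2 and Q3 arrays the lowest, with siNeg between. The difference was 1.498 (SE 0.13, adjusted p = 4.78e-13, limma), and another CD58 probe gave 1.54.

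POLE3, a histone-fold subunit of DNA polymerase epsilon and of the chromatin remodelling complex CHRAC, had the smallest adjusted p of the named genes. Its values were 10.91, 10.97 and 10.86 with A3, 9.53, 9.45 and 9.56 with A2, 9.36, 9.57 and 9.47 with Q3, and 10.24, 10.15 and 10.42 with siNeg. The groups formed separate bands, with siNeg between A3 and the other siRNAs. A3 minus A2 and Q3 was 1.42 (SE 0.08, adjusted p = 5.52e-19, limma). From siNeg POLE3 mRNA differed by 0.64 with A3, by -0.76 with A2 and by -0.80 with Q3, all called. Of 12 measured partners of POLE3 in these complexes and related histone-fold proteins, none was called higher and 1 lower (DRAP1, -0.26). This is 8.33%, against 14% of all genes. At an unadjusted limma p below 0.05 there was 1 in each direction. The DRAP1 call was lost without A2 replicate 2 or 3, A3 replicate 1 or 2, or Q3 replicate 2 or 3.

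COL3A1 encodes the chain of collagen type III, a fibrillar collagen of the extracellular matrix. Here siNeg was the highest group, at 10.47, 10.37 and 10.71, followed by A3 at 9.78, 9.80 and 9.87. A2 read 8.46, 8.37 and 8.53, and Q3 read 8.19, 8.61 and 8.64. COL3A1 was called lower than siNeg with all 3 siRNAs, at -0.70 with A3, -2.07 with A2 and -2.04 with Q3. A3 minus the mean of A2 and Q3 was 1.35 (SE 0.08, adjusted p = 1.72e-18, limma).

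The same order, siNeg above A3 above A2 and Q3, held for 3 more of the 15 genes. IPO5, an importin that carries ribosomal proteins and histones into the nucleus, read 9.18, 9.15 and 9.11 with A3 and 7.53 to 7.98 with A2 and Q3, and the siNeg arrays read 9.54, 9.24 and 9.40. For IPO5 the difference of A3 from siNeg, -0.25, was not called (adjusted p = 0.061, limma). IRAK1, a kinase of interleukin-1 and Toll-like receptor signalling, read 9.43, 9.20 and 9.54 with A3, 7.97 to 8.40 with A2 and Q3, and 10.03 to 10.19 with siNeg. DKK1, a secreted Wnt antagonist, read 6.45, 6.46 and 6.43 with A3, 4.98 to 5.56 with A2 and Q3, and 6.81 to 7.18 with siNeg. The Q3 arrays were at the edge of detection for DKK1, which was detected on 1 of 3.

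For 9 of the 15 higher genes the A3 arrays were above all siNeg arrays, for 4 below and for 2 overlapping. The A2 and Q3 arrays lay below siNeg for 11, above it for 1 and overlapped it for 3. SDC2, a cell-surface heparan sulphate proteoglycan, differed by 1.35, EIF2S3, the gamma subunit of translation initiation factor eIF2, by 1.13, and RNF14, a ubiquitin ligase, by 1.13. In these 3, as in CD58 and POLE3, siNeg lay between A3 and the other siRNAs. TMED1, a protein of vesicle transport, and CMTM4, a membrane protein, differed by 1.15 and 1.26, and in them A3 overlapped siNeg while A2 and Q3 were below it.

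In the remaining members A2 and Q3 lay at or above the siNeg level. BICD2, an adaptor for the dynein motor, read 8.73, 8.89 and 9.10 with A3, 7.59 to 8.001 with A2 and Q3, and 7.64 to 7.84 with siNeg. Its A2 and Q3 differences from siNeg, 0.05 and 0.00, were not called, and A3 was 1.17 above siNeg. ACTG2, smooth muscle gamma actin, was detected on no siNeg array and on all A3 arrays, which read 6.35, 6.50 and 6.35 against 4.73 to 5.30 with A2 and Q3. WASH2P, a transcribed pseudogene of the WASH family, differed by 1.47, and its probe may also read near-identical family copies.

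CMTM4 had 4 kept probes, which gave 1.26, 1.09, 0.39 and 0.14, so the size of its difference depended on the probe. The other RNF14 probe gave 0.79. Over the named genes with more than 1 kept probe, 12 of 13 further probes had the sign of the probe that stood for the gene, with the second SF3B1 probe as the exception.

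Among the lower genes RGS16, which speeds GTP hydrolysis by G-protein alpha subunits, was first. It read 5.92, 5.76 and 5.93 with A3, 7.07, 7.19 and 6.41 with A2, 7.34, 7.18 and 7.26 with Q3, and 5.06, 5.61 and 5.64 with siNeg. A3 lay just above siNeg and well below both other siRNAs, with a difference of -1.21 (SE 0.15, adjusted p = 1.07e-08, limma). CMTM1, a chemokine-like membrane protein, was detected on no siNeg array. It read 5.97, 5.81 and 5.34 with A3 and 6.39 to 7.06 with A2 and Q3, a difference of -0.98, and its other probe gave -1.30.

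CSAD, the cysteine sulfinic acid decarboxylase of taurine synthesis, was raised from siNeg by 0.88 with A2 and 0.67 with Q3. With A3 it read 5.51, 5.24 and 5.46, not called against siNeg (5.65, 5.56 and 5.55). JPT1 read 8.59, 8.82 and 8.75 with A3, 9.46 to 9.85 with A2 and Q3, and 8.56 to 9.09 with siNeg. Its A3 arrays overlapped siNeg, and A2 and Q3 were above both. UPP1, a uridine phosphorylase, read 8.28, 8.39 and 8.29 with A3, 8.84 to 9.34 with A2 and Q3, and 7.84 to 7.93 with siNeg, so A3 lay between.

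Over the 15 lower genes the A2 and Q3 arrays were above siNeg for 13 and overlapped it for 2. The A3 arrays overlapped siNeg for 7, were above it for 5 and below it for 3. NF2, which encodes the tumour suppressor merlin, CDK5R1, the p35 activator of CDK5, NAA60, an N-terminal acetyltransferase, and ACTR3B, an actin-related protein, differed by -0.75, -0.71, -0.70 and -0.90. GGT1, a gamma-glutamyltransferase with closely related gene copies, differed by -0.70. Further probes of ACTR3B (-0.22), NF2 (-0.27), CDK5R1 (-0.15) and UPP1 (-0.39) were lower in the same direction but not called.

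On the A3 arrays 5 of the lower genes were not detected at all, so only a lower bound of the fold is given. CCNA1, the germ-line and leukaemia cyclin A1, was at least 1.52-fold lower with A3 (adjusted p = 2.16e-05, limma) at measured means of 4.77 with A3 and 5.66 with A2 and Q3. H3C6, a histone H3 gene with near-identical copies, was at least 1.40-fold lower and S100A16, a calcium-binding protein, at least 1.24-fold lower. The small RNA genes SNORD101 and MIR761 were at least 1.34-fold and 1.12-fold lower. CCNA1 and S100A16 were detected on all siNeg arrays, and with A2 and Q3 they overlapped siNeg.

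**Figure D2:**
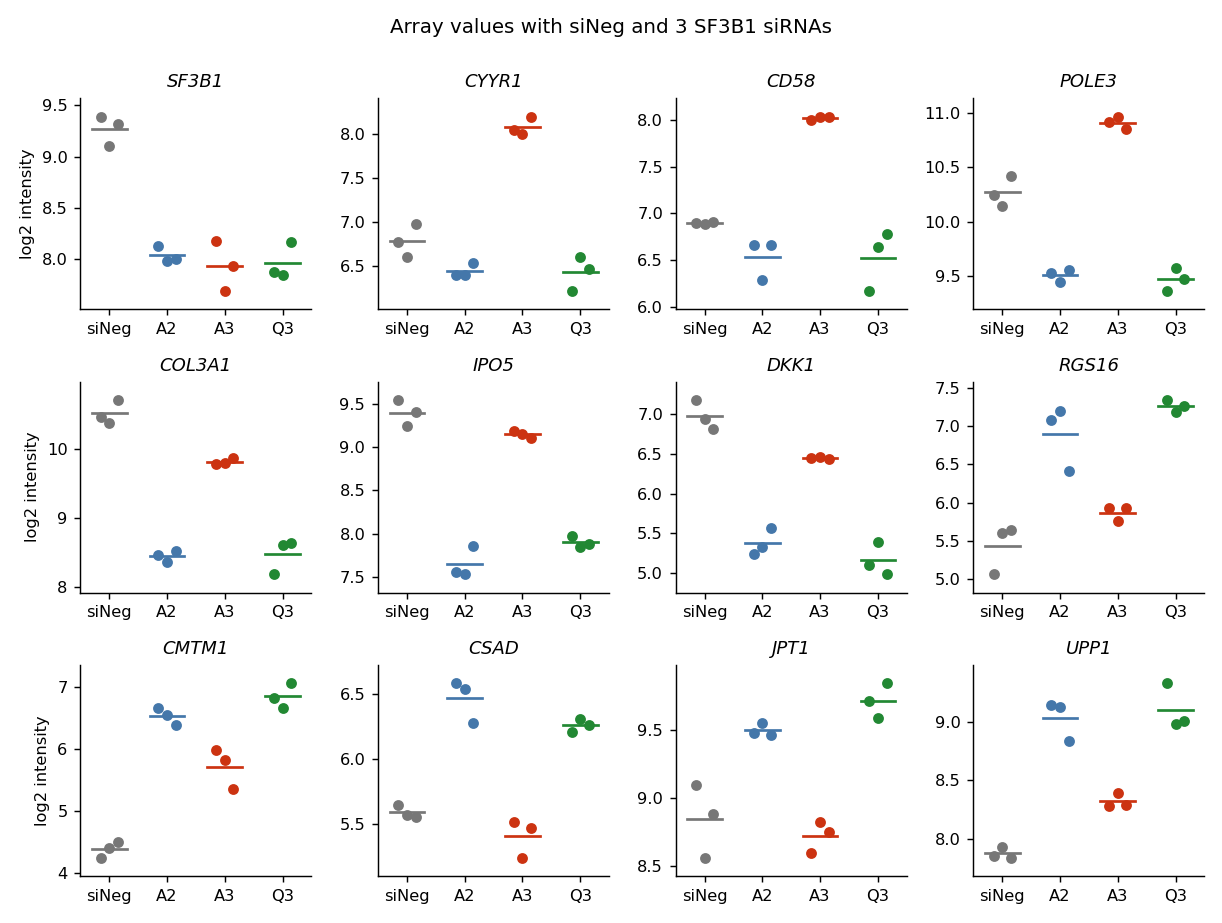
Each panel shows 1 gene, with log2 intensity on the vertical axis, each point 1 array, and the line the mean of 3 arrays. SF3B1 is low with all 3 siRNAs, while the A3 arrays lie apart from A2 and Q3 in the other 11 genes.

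**Figure D3:**
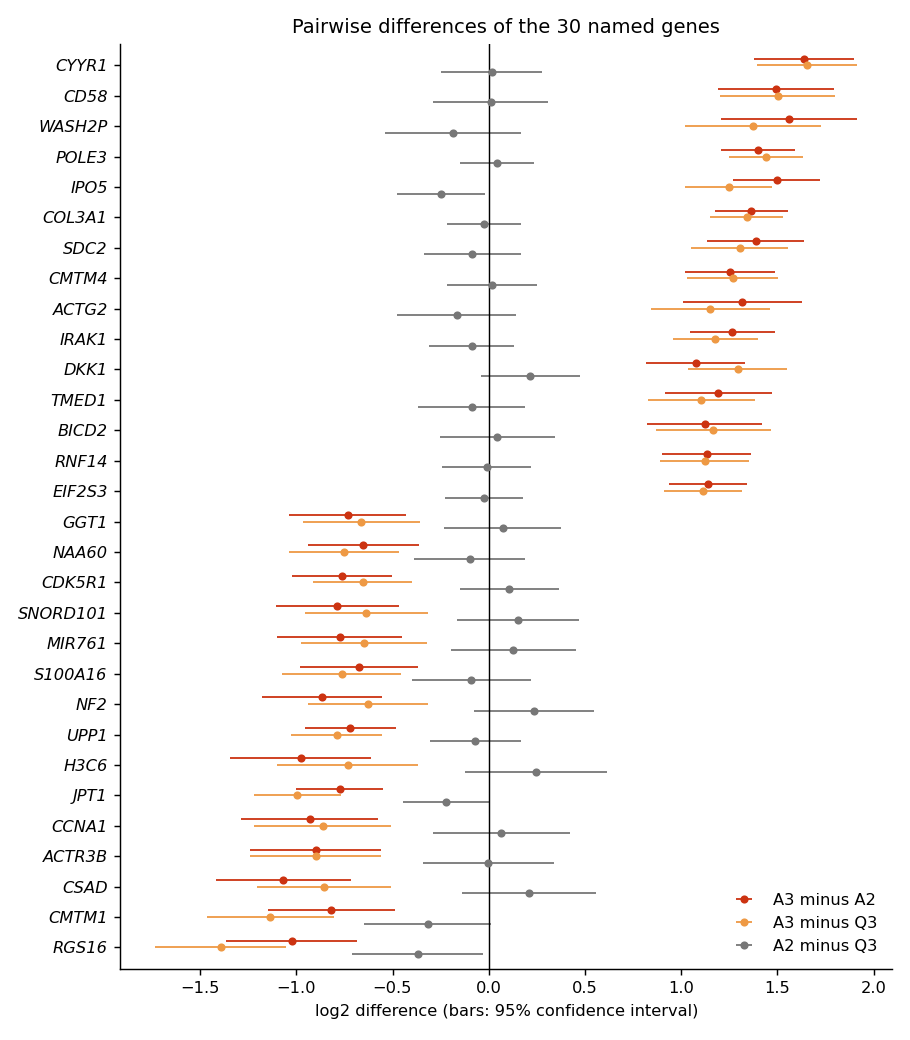
Log2 differences of the 30 named genes between siRNAs, with 95% confidence intervals from limma. A3 minus A2 and A3 minus Q3 lie on the same side of 0 for every gene, and A2 minus Q3 stays within 0.37 of 0.

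EWSR1 and FLI1, the genes joined in the fusion of these cells, were also read. Whether their probes read the fusion transcript, the unfused transcripts or both was not tested. EWSR1 was called lower than siNeg with all 3 siRNAs, at -1.07 with A3, -1.08 with A2 and -0.97 with Q3. Between A3 and the mean of A2 and Q3 it was not called (-0.05, adjusted p = 0.825, limma). The FLI1 probe read 7.005, 7.21 and 7.30 with A3, 7.61, 7.85 and 7.43 with A2, 7.60, 7.52 and 7.42 with Q3, and 6.21, 6.68 and 6.50 with siNeg. All 3 siRNAs were above siNeg, and A3 differed from the mean of A2 and Q3 by -0.40, with an adjusted p of 0.0498 (limma) that is at the threshold. Neither of the separate comparisons called it, and the call was lost without any one of 7 of the 9 arrays (adjusted p from 0.0310 to 0.258 over all 9 omissions, for differences of -0.46 to -0.31) and without the filter on dim probes (0.103). With the other alternatives the adjusted p ran from 0.0016 to 0.0577.

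Of 29 measured genes known to be repressed by EWS-FLI1, 11 were higher with A3 and 3 lower, against 9.27% and 4.73% of all genes. The median over the list was 0.06. From siNeg the list medians were -0.11 with A3, -0.07 with A2 and -0.12 with Q3. Without A3 replicate 1 the 14 calls became 9, and for 2 of the higher members, PHLDA1 and IGFBP3, no A2 or Q3 array detected the gene and no fold can be given. TGFBR2, the type II TGF-beta receptor, was among the higher ones with DKK1. TGFBR2 read 7.41, 7.71 and 7.59 with A3, 6.56, 6.76 and 6.60 with A2, 6.33, 6.92 and 6.61 with Q3, and 6.97, 7.01 and 6.69 with siNeg. A3 was above all other arrays shown and differed from A2 and Q3 by 0.94 (adjusted p = 1.73e-09, limma). CCN1, a matrix protein that binds integrins, and CDKN1A, the cell-cycle inhibitor p21, differed by 0.69 and 0.65, while FOXO3, a transcription factor and 1 of the 3 lower members, named after its value had been seen, differed by -0.52. From siNeg, A3 differed by -0.53 for DKK1 and -0.29 for CDKN1A, and by 0.68 for TGFBR2 and 1.28 for CCN1. Of 32 targets activated by EWS-FLI1, 4 were higher and 1 lower (15.6%, close to the 14% of all genes). They include PAPPA, a protease of insulin-like growth factor binding proteins, at 0.50, ID2 at 0.54 and UPP1 as the lower one.

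Genes of TGF-beta and BMP signalling gave 7 higher and 2 lower of 30 measured (30%, against 14% of all genes), with a list median of 0.12. In this pathway ligands of the TGF-beta family bind paired type I and type II receptors, which phosphorylate SMAD proteins, and ID genes are well-known targets of the BMP branch. Among the receptors ACVR1, a type I receptor, read 7.94, 8.18 and 8.13 with A3, 7.20 to 7.38 with A2 and Q3, and 7.31 to 7.56 with siNeg, a difference of 0.79 from A2 and Q3 (adjusted p = 1.97e-08, limma). SMAD5, a mediator of BMP signals, read 9.22, 9.22 and 9.18 with A3, 8.21 to 8.49 with A2 and Q3, and 8.94 to 9.002 with siNeg (0.82, adjusted p = 2.95e-10). The A3 arrays of both genes lay above siNeg.

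ID3, a repressor of helix-loop-helix transcription factors, read 9.78, 9.71 and 9.56 with A3, 8.36 to 8.83 with A2 and Q3, and 9.40 to 9.56 with siNeg. Its difference was 1.01 (adjusted p = 5.22e-14, limma). The other called members, named after their values had been seen, were ID1 (0.63), ID2 (0.54) and the ligand BMP2 (0.50) on the higher side, and SKI, a repressor of SMAD activity (-0.60), and the ligand BMP7 (-0.31) on the lower side. Neither ligand, BMP2 nor BMP7, was called against A2 alone. TGFBR2 and ID1 are also on the list of genes repressed by EWS-FLI1, and ID2 is on that of activated targets. Of the 30 measured genes 21 were not called.

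Extracellular matrix and mesenchymal genes were called in both directions, 8 higher and 5 lower of 45 (28.9%, against 14% of all genes), with a median of 0.05. IGFBP3 is 1 of the 8. SPARC, a collagen-binding glycoprotein, read 10.04, 9.78 and 10.02 with A3, 8.70 to 9.15 with A2 and Q3, and 9.59 to 9.66 with siNeg. It differed by 0.90 from A2 and Q3 (adjusted p = 5.43e-11, limma), and A3 lay above siNeg. COL11A1, a minor fibrillar collagen, and CCN2, a connective tissue growth factor, differed by 0.71 and 0.57, and CCN1 is also on this list. ELN, which encodes elastin, was the lower member with the largest size (-0.52, named after its value had been seen). COL3A1 stands on no list and is not part of these counts. Of 9 measured epithelial, blood cell and fibroblast markers none was called by limma, where 14% of all genes were. An unadjusted limma p below 0.05 was met by 3 lower ones. Without A2 replicate 2 or 3, 1 was called, and COL1A1 was detected on no A3 array.

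Small nucleolar and Cajal body RNAs, which guide the chemical modification of ribosomal and spliceosomal RNA, gave 26 higher and 14 lower genes of 149 (26.8%, against 14% of all genes). The median was 0.03, close to that of all genes. SNORD13, which guides acetylation of ribosomal RNA, read 10.10, 9.80 and 9.77 with A3, 8.52 to 8.99 with A2 and Q3, and 7.54 to 7.94 with siNeg, a difference of 1.09 (adjusted p = 1.64e-09, limma). SNORD46, of the box C/D class that guides ribose methylation, differed by 1.08. SNORA48 and SNORA28, of the box H/ACA class that guides pseudouridylation, differed by 1.06 and 1.02. SNORA48 was detected on no siNeg array and read 4.23 to 4.37 there, 5.70 to 6.16 with A2 and Q3, and 7.35, 6.97 and 6.83 with A3. In these 4 genes siNeg was lowest and A3 highest, and A2 and Q3 were also above siNeg. Whether a probe of an intron-encoded small RNA also read unspliced host RNA was not tested. Of 13 snoRNA host genes none was called higher, also at an unadjusted limma p below 0.05. For a list of 13 this is near the 9.27% of all genes called higher. Called lower were 3 (23.1%, against 4.73% of all genes), led by SNHG15 at -0.68. Without A3 replicate 1 or 2 these 3 calls became 1.

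**Figure D4:**
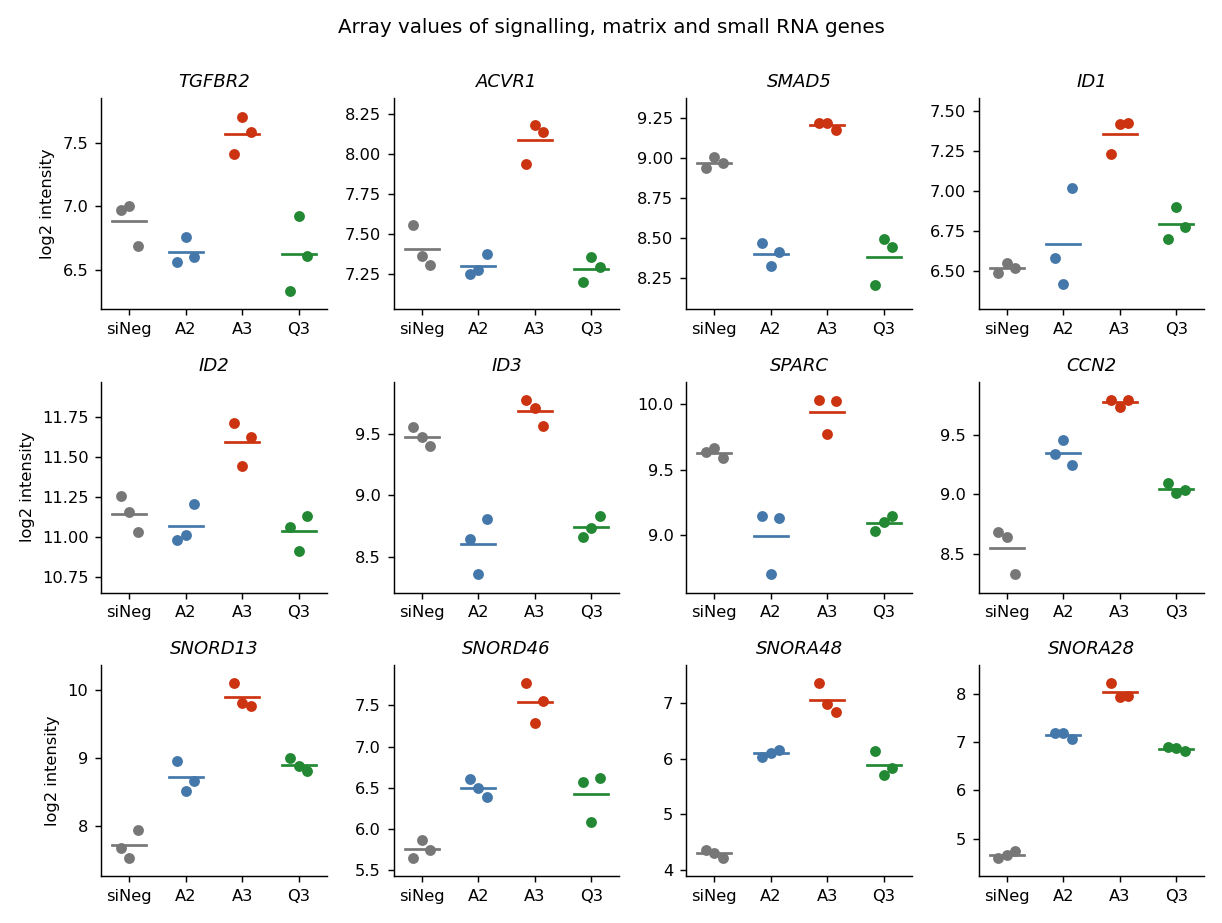
Log2 intensity of 12 members of the signalling, matrix and small RNA lists, with points for arrays and lines for the mean of 3 arrays. A3 lies above A2 and Q3 in each, and every siNeg array is below all others in the 4 small RNA genes and in CCN2.

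Genes of the integrated stress and unfolded protein responses were called in 1 direction only, 12 higher and none lower of 44 (27.3%). Of all genes 9.27% were higher and 4.73% lower. In the list, limma's unadjusted p was below 0.05 for 18 higher genes and 1 lower gene. CHAC1, 1 of the 12, was detected on no A2 or Q3 array, and no fold can be given for it. The list median was 0.16, against 0.02 for all genes. All 3 siRNAs had this list far below siNeg, with medians of -1.18 with A3, -1.32 with A2 and -1.21 with Q3. ATF5, a stress-induced transcription factor, read 7.74, 7.76 and 7.74 with A3, 7.06 to 7.52 with A2 and Q3, and 10.69 to 11.45 with siNeg. A3 differed by 0.50 from A2 and Q3 (adjusted p = 0.0028, limma) and by -3.34 from siNeg. TRIB3, a pseudokinase induced by ATF4, SHMT2, the mitochondrial enzyme of serine and glycine metabolism, and HSPA5, the chaperone BiP, differed by 0.45, 0.44 and 0.43. Against A2 and against Q3 separately 4 of the 44 were called.

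In lipid synthesis, 6 of 28 genes were higher and 1 lower (25% called, against 14% of all genes), with a median of 0.02. SC5D, a desaturase late in cholesterol synthesis, read 7.15, 6.88 and 7.18 with A3, 6.01 to 6.49 with A2 and Q3, and 6.27 to 6.32 with siNeg, and differed by 0.88 (adjusted p = 8.21e-09, limma). PMVK, SQLE and LSS, a kinase, an epoxidase and a cyclase of the same route, differed by 0.62, 0.43 and 0.43. Of 38 immediate early genes 9 were higher and 1 lower (26.3% called). KLF2, a transcription factor, differed by 0.80, and JUNB, a subunit of the transcription factor AP-1 detected on 2 of 3 A3 arrays, by -0.50. Of the 38, 5 higher genes and no lower one were called against A2 and against Q3 separately. Without A3 replicate 1 or 2 the 10 calls became 6.

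The lists of splicing factors had calls in both directions. The shares called were 20% (U2 snRNP and SF3B), 21.7% (SR proteins and kinases) and 20.7% (hnRNP), against 14% of all genes. Of 25 U2 snRNP and SF3B components other than SF3B1, 3 were higher and 2 lower, with a median of -0.07. SF3A3, a subunit of the neighbouring SF3A complex, read 9.56, 9.54 and 9.35 with A3, 8.87 to 9.10 with A2 and Q3, and 9.60 to 9.86 with siNeg, a difference of 0.50 (adjusted p = 2.17e-05, limma). Its partner SF3A2 differed by -0.31. SF3A1, counted among the 3, was detected on 2 of 3 A3 arrays and on no A2 or Q3 array, so no fold can be given and no rise is shown for it. The 5 calls became 3 without A2 replicate 2 or 3 or Q3 replicate 1 or 2, 2 without A3 replicate 1, and 1 without A3 replicate 2. U2AF1, which binds the 3′ splice site, differed by -0.28. Of the 25, only SF3A3 was called against A2 and against Q3 separately. Of 23 SR proteins and their kinases 3 were higher and 2 lower, SRSF7 at 0.40, SRSF6 at 0.35 and SRSF11 at -0.57 being examples. HNRNPC (0.44) and HNRNPH3 (-0.42), RNA-binding proteins of nuclear pre-mRNA, were among the 4 higher and 2 lower of 29 hnRNP genes. HNRNPC was called against A2 and against Q3 separately, while HNRNPH3 was not called against Q3.

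The machinery that siRNAs use, and sensors of foreign RNA, were read with the same fit. The shares called were 26.7% (RNA interference) and 15.4% (interferon response and RNA sensing), against 14% of all genes. The latter is close to that share. Of 15 RNA interference genes 3 were higher and 1 lower, with XPO5, the exporter of pre-miRNAs, at 0.53, DICER1 at 0.46, TSNAX, a subunit of the C3PO nuclease, at 0.36, and TARBP2, a partner of DICER1, at -0.40. Only XPO5 was called against A2 and against Q3 separately. The 4 calls became 2 without A3 replicate 1 and 1 without A3 replicate 3. Of 39 interferon response and RNA sensing genes 3 were higher and 3 lower, with a median of 0.04. ADAR, an RNA-editing enzyme, differed by 0.37 and PSMB9, a subunit of the immunoproteasome detected on 1 of 3 A3 arrays, by -0.45. Against A2 and against Q3 separately, 1 of the 39 was called higher and 1 lower. The 6 calls became 2 without A3 replicate 2 and 3 without A3 replicate 3, and SAMD9 and GBP2, among the higher ones, were detected on no A2 or Q3 array.

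In the cell death and cell cycle lists the shares called were 21.1% (BCL2 family), 16.7% (p53 targets), 11.8% (DNA replication) and 10.9% (mitosis). Of all genes 14% were called, so the p53, replication and mitosis lists were near or below that share. BCL2 family genes had 1 higher and 3 lower of 19, with a median of -0.13. BCL2L11, 1 of the 3 lower, was detected on no A3 array, and no fold can be given for it. BCL2L2, a survival factor, differed by 0.56, and BAD, which promotes cell death, by -0.56. BCL2L12, the remaining lower member, differed by -0.50. BAD read 7.30, 7.32 and 7.39 with A3, 7.64 to 8.12 with A2 and Q3, and 7.03 to 7.30 with siNeg, so A3 was close to siNeg. Of 24 p53 targets 3 were higher and 1 lower, CDKN1A being the largest, and the 4 calls became 2 without A3 replicate 3. DNA replication genes gave 2 higher and 4 lower of 51, with a list median of 0.03. Among the lower ones were ORC1 of the origin recognition complex at -0.59 and MCM2 of the replicative helicase at -0.40. The 6 replication calls became 3 without A3 replicate 1. Against A2 and against Q3 separately, 2 of the 51 were called higher and 2 lower. Mitosis genes gave 1 higher and 5 lower of 55, with NUF2 of the kinetochore at -0.56 and the kinase PLK1 at -0.46. None of these 6 was called against A2 and against Q3 separately. These 6 calls became 3 without A3 replicate 1, 2 without A3 replicate 3, 11 with the 9 SF3B1 arrays alone and 12 with the authors' normalized values.

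The shares called in the remaining lists were 4.62% (ribosomal protein), 11.8% (nonsense-mediated decay), 7.41% (heat shock), 12.5% (Ewing sarcoma markers), 27.8% (neuronal) and 14.8% (histone). Of all genes 14% were called, and only the neuronal list was well above that. Ribosomal protein genes gave 3 higher and none lower of 65 (5 and 2 at an unadjusted limma p below 0.05). Among the higher ones RPL34, whose probe may also read processed pseudogenes, read 9.93, 9.92 and 9.90 with A3, 8.998 to 9.30 with A2 and Q3, and 9.15 to 9.51 with siNeg (0.80, adjusted p = 2.26e-10, limma). Of 17 nonsense-mediated decay factors, NCBP2, a subunit of the nuclear cap-binding complex, was the higher one. It read 9.64, 9.57 and 9.62 with A3, 8.38 to 8.80 with A2 and Q3, and 7.998 to 8.41 with siNeg, and differed by 1.00 (adjusted p = 7.49e-10). EIF4A3 of the exon junction complex was the lower one at -0.26, and it was not called against Q3 alone. These 2 calls became 1 without A2 replicate 2, A3 replicate 1 or 3, or Q3 replicate 2. Heat shock genes had 2 higher and none lower of 27 (7 and 1 at an unadjusted limma p below 0.05), and of 8 Ewing sarcoma markers PRKCB, a protein kinase C, was called at 0.33. The heat shock calls fell to 1 without A2 replicate 2 or 3, A3 replicate 1 or 2, or Q3 replicate 2, and the ribosomal protein calls to 1 without A2 replicate 3 or Q3 replicate 1. Neuronal genes gave 2 higher and 3 lower of 18, which became 3 calls without A2 replicate 2, any A3 replicate, or Q3 replicate 1 or 2. Histone genes gave 1 higher and 3 lower of 27, which became 1 call without A3 replicate 1 and 2 without A3 replicate 3. H2BC4, the higher one, was detected on no A2 or Q3 array.

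**Figure D5:**
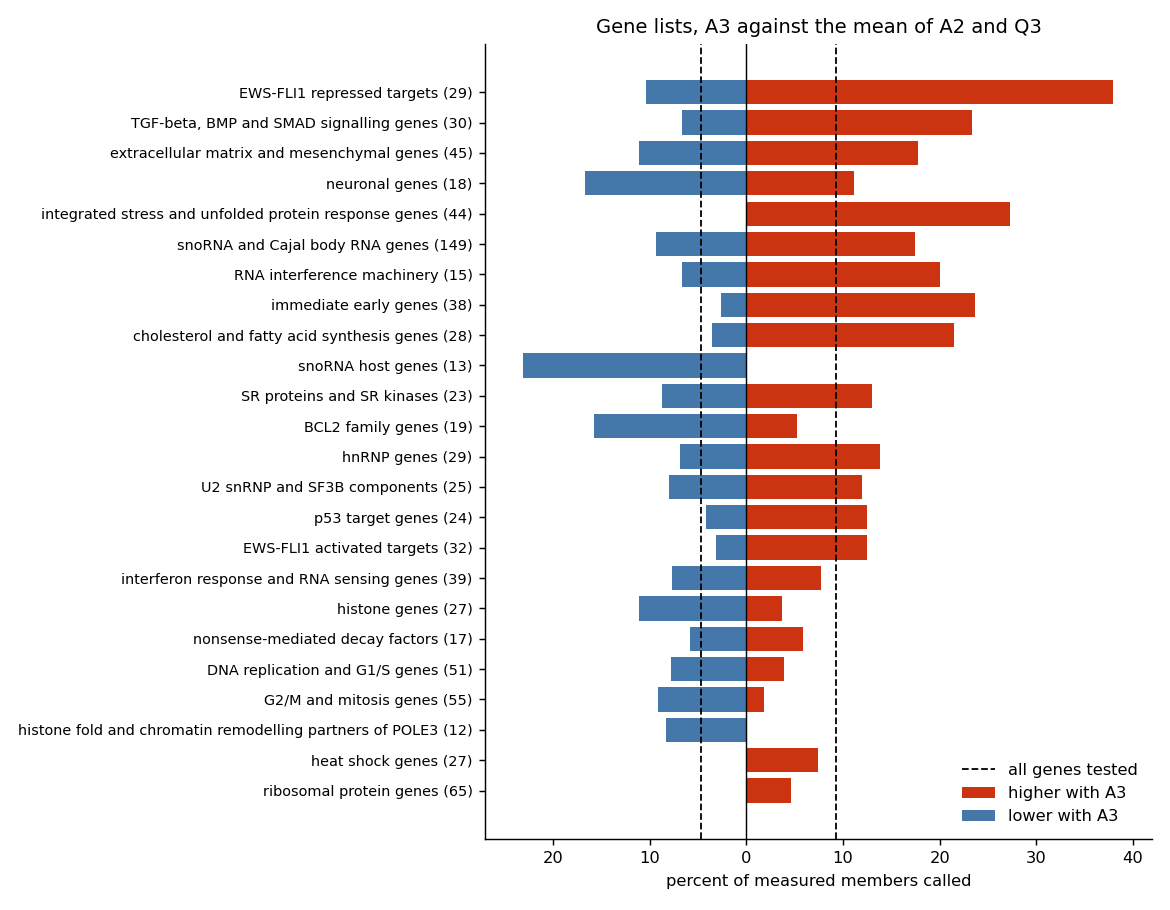
Percent of measured members of each gene list (number measured in parentheses) called higher or lower with A3 than with the mean of A2 and Q3. Dashed lines mark the shares over all genes tested, 9.27% higher and 4.73% lower. Stress response, heat shock and ribosomal protein genes have no member called lower. Heat shock (7.41%) and ribosomal protein genes (4.62%) are called less often in all than the genes tested (14%).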

How the data were processed

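Total RNA was labelled as biotinylated cRNA and hybridized to 36 bead arrays. Per the submitters' processing notes, GenomeStudio, R 3.0.2 and lumi were used; roles and settings are not given in the sources used here. The deposited table of bead intensities held 47323 probes, not normalized, with a deposited detection p-value for each value. A further deposited table held log2 values normalized by the authors, in which 24 arrays shared a median of 6.533 and 12 a median of 6.44 (the runs). For 36 of 36 columns the best rank correlation between both tables was with its own sample or group. The columns of the Untreated arrays were matched by elimination and entered only the spread.

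Intensities were corrected and quantile-normalized together by neqc (limma 3.58.1, R 4.3.3, offset 16). Probes with a detection p below 0.01 on at least 3 arrays were kept (19738). The brightest probe with 1 symbol (platform annotation, updated by Entrez number through RefSeq GRCh38.p14) stood for a gene. A limma model with 12 groups and 24 residual degrees of freedom was fitted with eBayes and an intensity trend, and tested on simulated data. Of the genes called against A2 and against Q3, the 15 largest each way are named, together with COL3A1, POLE3, CYYR1, SF3B1, EWSR1 and FLI1, and up to 4 called members of each list; placeholder names were passed over. The comparison, the genes and the lists were chosen with earlier results of these data known. Where no array of a group detected a gene, the bound of its fold uses, per array, the higher of its own value and the lowest signal detected. The number of arrays, 3 per siRNA, limits the precision. Other background corrections, filters, probes, sets of arrays and weights were tried.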

Additional observations from a re-analysis of the deposited data

How the results depend on the processing

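Of 540 values of the 30 named genes under the alternatives, 536 kept their direction and call, none reversed, and the 4 that lost the call were ACTR3B, UPP1, NF2 and CDK5R1 with the second probe of a gene. In that setting a gene with 1 kept probe was read with the same probe again, so its difference was fixed. Only 10 of 33 named genes, SF3B1 and EWSR1 among them, had over 1 kept probe, as did 3008 of all 11437 genes. The genes called for A3 against A2 and Q3 numbered 1340 to 1850 over the settings that kept all 9 SF3B1 arrays and the threshold, with 75.6% to 99.8% of the 1601 shared, and 34 at a difference of at least 1. Leaving out 1 array gave 1064 to 1614, of which 734 to 1073 were higher and 330 to 541 lower, and 498 to 677 genes called against both siRNAs separately. The small counts depended most on the processing. A2 against Q3 gave 81 genes with the authors' log2 values, 5 without the filter, 1 with the 9 arrays alone, 4 with array weights and 0 to 24 without 1 array. Genes apart for A2 were 32, 2, 0, 1 and 0 to 12 in the same order, and for Q3 24, 2, 1, 2 and 0 to 10, with 7 for Q3 without background correction. Where limma gave a count of 0, an unadjusted p below 0.05 was met by 1101 genes (A2 against Q3 without A2 replicate 2) or by 312 to 497 genes (the separate comparisons). With the 9 arrays and the replicate block, 1724 genes were called for A3, 867 against both siRNAs, 2 for A2 against Q3, 1 apart for A2 and 1 for Q3. Whether the replicate numbers pair the samples was not settled. Same-numbered arrays correlated at -0.03 to 0.11 after group means were removed, above 0.1 for 1 of 9 pairs. Other-numbered arrays correlated at -0.11 to 0.07, and 6 of 9 arrays correlated best with their own number. SF3B1 reversed to 0.25 with the second probe and to 0.052 without A3 replicate 2 (-0.19 to 0.052 without 1 array), and EWSR1 to 0.016 without A2 replicate 3 (-0.11 to 0.016). None of these values was called and the cause was not tested. Genes dimmer than the detection limit on A3 arrays have bounds only.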
